A study of Arabidopsis thaliana with 8 samples.

Results

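The genes examined here are 10 imprinted genes of the Arabidopsis endosperm, chosen by gene identifier from the 33433 genes counted in each table of small RNA (sRNA) reads. Of these, 6 are known as maternally expressed genes, for which endosperm mRNA comes mainly from the maternal alleles: MEA (AT1G02580), FIS2 (AT2G35670), FWA (AT4G25530), SDC (AT2G17690), HDG8 (AT3G03260) and HDG9 (AT5G17320). The other 4 are known as paternally expressed genes: HDG3 (AT2G32370), ADM (AT4G11940), SUVH7 (AT1G17770) and VIM5 (AT1G57800). The classes describe mRNA, were taken from general knowledge and were not measured here. The values below are numbers of sRNA reads that fell in each gene, not expression of the gene.

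Imprinting is the unequal use of the maternal and paternal copies of a gene, and in flowering plants it is found mainly in the endosperm, the tissue that nourishes the embryo. Many imprinted genes lie beside transposable elements (TEs) or tandem repeats whose DNA methylation is removed from the maternal genome by the glycosylase DEMETER before fertilization, or carry histone marks set by Polycomb repressive complex 2 (PRC2). RNA Pol IV, whose largest subunit is NRPD1, makes the precursors of 24-nt sRNAs that guide new DNA methylation to TEs and repeats, a route called RNA-directed DNA methylation.

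The study counted sRNAs of F1 endosperm 7 days after pollination from crosses of Ler mothers with Col-0 fathers, dissected free of embryo and seed coat and pooled from many seeds per library. In nrpd1-/- endosperm both parents were mutant (3 libraries). In mat nrpd1+/- endosperm an nrpd1-/- Ler mother was crossed to a wild-type Col-0 father (3 libraries), so that the working NRPD1 copy came from the father. In pat nrpd1+/- endosperm a wild-type Ler mother was crossed to an nrpd1-/- Col-0 father (replicates 2 and 3, since the authors discarded 1 library with few reads). Every group carried the same T-DNA allele, nrpd1a-4, which arose in Col-0 and was brought into Ler by repeated backcrossing, and the replicates came from different parent plants. The paper reports that Col-0 segments remain in the Ler nrpd1-/- plants, the mothers of nrpd1-/- and mat nrpd1+/- endosperm. Between mat and pat nrpd1+/-, these segments, the number of working NRPD1 copies and the parent that transmits the mutant allele cannot be told apart. The paper counts 1 working copy in mat nrpd1+/- and 2 in pat nrpd1+/- endosperm, which is triploid. Whether any of the 10 genes lies in such a segment was not checked. Wild-type libraries were not analysed here, and wild-type levels are given only as means worked out from the authors' pooled columns. Genic 24-nt reads came to 281070 to 484720 per library in nrpd1-/-, 880535 to 1099934 in mat nrpd1+/-, and in pat nrpd1+/- endosperm from 1117563 to 3274885. NRPD1 itself had 10, 13 and 10 reads of 24 nt in nrpd1-/-, 288, 258 and 242 in mat nrpd1+/- and 170 and 73 in pat nrpd1+/- libraries, but sRNA reads in a gene do not show whether it is intact, so they check no label. The count tables hold no mRNA, so the tissue could not be checked against marker genes. In bulk endosperm, fewer cells of a type and fewer sRNAs per cell cannot be told apart.

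Repeats around the start of FWA and upstream of SDC are textbook targets of RNA-directed DNA methylation, and loss of methylation there is known to switch both genes on. The repeats found upstream of the annotated starts are shown here, and they may be only part of the known targets. Reads were counted only inside the annotated gene, so that sRNAs from the stretches shown do not enter the values below. Repeats inside the annotated genes were not searched for, and sRNAs from any such repeats would enter those values. The sequences are from the RefSeq copy of the TAIR10.1 assembly, plus strand, and capitals mark bases inside exact matches of 14 bases that recur at the repeat distance, 32 bp for SDC and 45 bp for FWA. They lie at chr2:7681918-7682075 and chr4:13038249-13038331, within 300 bp upstream of the annotated starts, and overlap no annotated exon.
SDC upstream repeats: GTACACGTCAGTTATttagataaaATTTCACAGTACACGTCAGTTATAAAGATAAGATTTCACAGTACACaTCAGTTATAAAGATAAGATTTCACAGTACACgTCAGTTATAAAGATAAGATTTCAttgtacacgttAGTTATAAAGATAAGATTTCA
FWA upstream repeats: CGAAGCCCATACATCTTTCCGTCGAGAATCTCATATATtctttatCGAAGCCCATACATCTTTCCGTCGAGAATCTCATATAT
Repeats of this kind were found in the 300 bp upstream of 2 of the 10 genes, SDC and FWA, and upstream of 640 of 27443 protein-coding genes in all (2.33%). No such repeat was found in that window of the other 8 genes.

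All 10 genes had at least some 24-nt reads, but most had few. SDC was the richest per length in mat nrpd1+/- endosperm, with 55.7 ± 1.65 reads per 1000000 reads of scaled library size (CPM) per kb of gene (SD, n = 3), followed by FWA with 8.003 and HDG9 with 6.03 on the same scale. The other 7 genes lay at or below 4.58 CPM per kb there. In pat nrpd1+/- endosperm SDC again came first, at 59.9 ± 10.8 CPM per kb (SD, n = 2), and HDG8 came second at 19.5 ± 12.3. HDG8 spread widely, at 28.2 and 10.8 in replicates 2 and 3, against 7.89 and 7.91 for FWA. Among 22-nt sRNAs, 6 of the 10 genes (MEA, FIS2, FWA, HDG3, ADM and VIM5) averaged under 5 reads per library in every genotype and are treated as having too few reads. The same held for 4 genes among 23-nt sRNAs (HDG3, ADM, SUVH7 and VIM5). Among 21-nt sRNAs it held in both heterozygotes for 4 genes (MEA, FIS2, ADM and VIM5), for which no 21-nt reads of nrpd1-/- endosperm were used here. No gene fell under that minimum for 24-nt sRNAs.

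**Figure D1:**
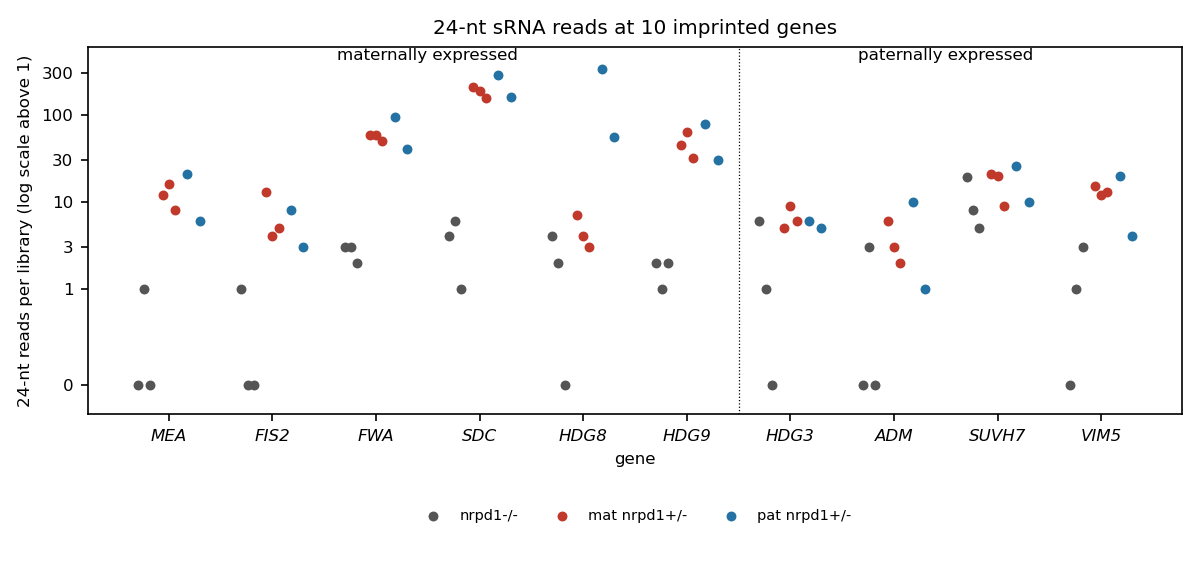
24-nt sRNA reads in each of the 10 genes, 1 point per library, on a log scale with 0 shown at the foot, for nrpd1-/-, mat nrpd1+/- and pat nrpd1+/- endosperm. HDG8 has 3 to 7 reads in mat nrpd1+/- libraries and 55 and 334 in pat nrpd1+/- libraries, while SDC and FWA have similar reads in the heterozygotes and 6 or fewer in nrpd1-/-.

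The first comparison set the heterozygotes against each other. They differ in the parent that transmits the mutant allele and in the number of working NRPD1 copies. HDG8 stood apart: its sRNAs were nearly gone when the mother was mutant and abundant when the father was. None of the other 6 genes tested for 24-nt sRNAs passed the test. Of the 7 genes tested, 1 was lower in mat nrpd1+/- and 0 were higher, a call being a difference of 2-fold or more with a p, adjusted over all genes tested, no higher than 0.05. That rule called 8.13% of the 7684 genes tested, 2.8% higher and 5.34% lower. The remaining 3 genes, FIS2, HDG3 and ADM, did not pass the filter on low counts. That filter keeps a gene with enough reads in 1 group, so a gene near 0 in the other group enters through its richer group. HDG8 entered through its pat nrpd1+/- reads alone, so the direction of its call was largely set in advance. Here and below, counts of called genes are a description and no support beyond the raw reads.

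MEA and FIS2, a histone methyltransferase and a zinc-finger protein, are subunits of the PRC2 of the seed. MEA had 12, 16 and 8 reads of 24 nt in mat nrpd1+/- libraries, against 21 and 6 in pat nrpd1+/- libraries. The groups overlapped, and the log2 fold change of mat over pat nrpd1+/- was 0.05 ± 0.41 (SE; edgeR quasi-likelihood test, Benjamini-Hochberg adjusted p = 0.965). FIS2 had 13, 4 and 5 reads in mat nrpd1+/- and 8 and 3 in pat nrpd1+/- libraries, also overlapping.

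FWA encodes a homeodomain leucine zipper (HD-ZIP) class IV transcription factor. It had 59, 59 and 50 reads of 24 nt in mat nrpd1+/- libraries, against 93 and 40 in pat nrpd1+/- libraries. Scaled for library size these were 44.4 ± 2.15 CPM in mat nrpd1+/- (SD, n = 3) and 45.5 ± 1.17 CPM in pat nrpd1+/- endosperm (SD, n = 2), a log2 fold change of -0.04 ± 0.22 (edgeR adjusted p = 0.949). SDC, an F-box gene, had 208, 187 and 155 reads in mat nrpd1+/- libraries, against 288 and 160 in pat nrpd1+/- libraries. Its levels were 145 ± 2.87 CPM in mat nrpd1+/- and 161 ± 24.9 CPM in pat nrpd1+/-, with a log2 fold change of -0.15 ± 0.19 (edgeR adjusted p = 0.744). In both genes the difference was smaller than its SE.

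HDG8 and HDG9 also encode HD-ZIP class IV factors. HDG8 had 7, 4 and 3 reads of 24 nt in mat nrpd1+/- libraries, against 334 and 55 in pat nrpd1+/- libraries. Every mat nrpd1+/- library was thus below both pat nrpd1+/- libraries, which themselves differed widely. The levels were 3.60 ± 1.202 CPM in mat nrpd1+/- and 114 ± 74.2 CPM in pat nrpd1+/- endosperm, and the log2 fold change was -4.96 ± 0.46 (edgeR adjusted p = 3.48e-06). It was -4.01 without pat nrpd1+/- replicate 2 and -5.42 without pat nrpd1+/- replicate 3, and the call held in both. HDG9 behaved otherwise, with 45, 63 and 32 reads in mat nrpd1+/- and 78 and 30 in pat nrpd1+/- libraries. Its groups overlapped, with a log2 fold change of 0.00 ± 0.28 (edgeR adjusted p = 0.997).

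The means worked out from the authors' tables placed HDG8 in pat nrpd1+/- endosperm near wild type. On the authors' normalised scale it averaged 5.31 reads of 24 nt in mat nrpd1+/- endosperm, where the wild-type mean was 110. In the table of pat nrpd1+/- endosperm the mean was 156, against 126 in wild type. SDC averaged 212 in mat nrpd1+/- against 203 in wild type, and 231 in pat nrpd1+/- against 233 in wild type. These means carry no SD and were not tested.

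In pat nrpd1+/- endosperm the share of 21-nt reads was higher for HDG8 than for SDC and FWA and lower than for SUVH7 and HDG3. Over both libraries 33.1% of the 859 HDG8 reads of 21 to 24 nt were 21 nt long (95% Wilson interval 29.997 to 36.3) and 45.3% were 24 nt long (42.0 to 48.6), intervals that cover counting error only. The libraries differed by more than that: pat nrpd1+/- replicate 2 had 30.1% of its 680 HDG8 reads at 21 nt and 49.1% at 24 nt, and replicate 3 had 44.1% of 179 at 21 nt and 30.7% at 24 nt. For SDC in the same libraries, 5.66% of 601 reads were 21 nt (4.08 to 7.80) and 74.5% were 24 nt (70.9 to 77.9). FWA resembled SDC, with 6.10% of 213 reads at 21 nt in pat nrpd1+/- endosperm.

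The lower HDG8 level in mat nrpd1+/- endosperm was seen in every sRNA length counted. Reads of 21 nt numbered 3, 1 and 0 in mat nrpd1+/- libraries, against 205 and 79 in pat nrpd1+/- libraries, a log2 fold change of -6.19 ± 0.55 (edgeR adjusted p = 2.24e-06). Reads of 22 nt numbered 2, 0 and 0 in mat nrpd1+/- libraries, against 107 and 31 in pat nrpd1+/- libraries, a log2 fold change of -6.59 ± 0.78 (edgeR adjusted p = 0.000378). Reads of 23 nt numbered 1, 4 and 1 in mat nrpd1+/- libraries, against 34 and 14 in pat nrpd1+/- libraries, a log2 fold change of -3.88 ± 0.60 (edgeR adjusted p = 0.0031). In each length all mat nrpd1+/- libraries lay below both pat nrpd1+/- libraries. HDG8 was the only called gene among 4 tested for 21-nt sRNAs, where 13.1% of all genes were called (3.48% higher, 9.65% lower). It was also the only one among 2 tested for 22-nt sRNAs, where 11.9% were called (2.34% higher, 9.57% lower). In each length HDG8 entered the test through its pat nrpd1+/- reads alone. Without pat nrpd1+/- replicate 2 the call for 23-nt sRNAs was lost (edgeR adjusted p = 0.0921). The sizes rest on few mat nrpd1+/- reads: the log2 fold change was -7.42 for 21 nt and -9.03 for 22 nt without mat nrpd1+/- replicate 1, -5.97 for 22 nt and -4.79 for 23 nt without mat nrpd1+/- replicate 2, and -5.69 for 22 nt without pat nrpd1+/- replicate 2.

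**Figure D2:**
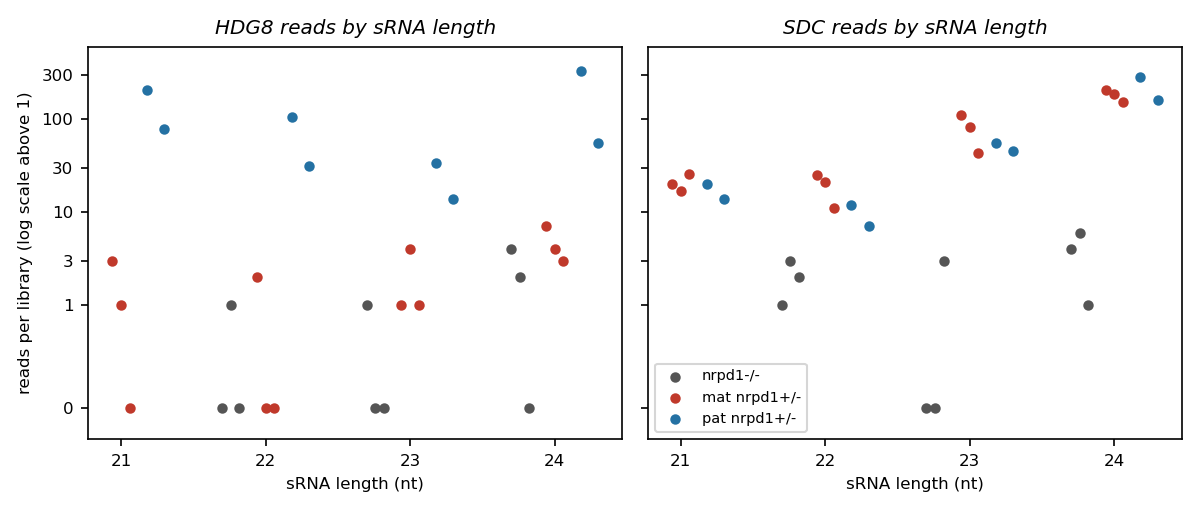
Reads of 21, 22, 23 and 24 nt in HDG8 (left) and SDC (right), 1 point per library, on a log scale with 0 shown at the foot, for nrpd1-/-, mat nrpd1+/- and pat nrpd1+/- endosperm; 21-nt reads of nrpd1-/- are not plotted. In every length the 3 mat nrpd1+/- libraries have at most 7 HDG8 reads and the 2 pat nrpd1+/- libraries at least 14, while the SDC points of the heterozygotes lie close together.

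For 23-nt sRNAs 2 of 4 genes tested were called, HDG8 and FWA, both lower in mat nrpd1+/-, against 10.9% of all genes (3.28% higher, 7.6% lower). FWA had 27, 15 and 13 reads of 23 nt in mat nrpd1+/- libraries, against 33 and 29 in pat nrpd1+/- libraries. The libraries did not overlap, and the log2 fold change was -1.23 ± 0.31 (edgeR adjusted p = 0.0393). The FWA call was lost whichever 1 library was left out (adjusted p = 0.0598 to 0.158) and in the DESeq2 test (adjusted p = 0.331). SDC had 112, 82 and 43 reads of 23 nt in mat nrpd1+/- and 55 and 45 in pat nrpd1+/- libraries. HDG9 had 34, 34 and 19 in mat nrpd1+/- and 23 and 12 in pat nrpd1+/- libraries. Neither passed the test, with log2 fold changes of 0.16 ± 0.27 for SDC and 0.30 ± 0.32 for HDG9.

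Among 21-nt and 22-nt sRNAs, SDC had 20, 17 and 26 reads of 21 nt in mat nrpd1+/- and 20 and 14 in pat nrpd1+/- libraries, and 25, 21 and 11 reads of 22 nt in mat nrpd1+/- and 12 and 7 in pat nrpd1+/- libraries. Neither difference passed the test (log2 fold changes of 0.68 ± 0.39 and 0.78 ± 0.41, edgeR adjusted p = 0.304 and 0.294).

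The paternally expressed genes had few 24-nt reads, and none differed between the heterozygotes beyond its spread. SUVH7 encodes a SET-domain protein of the histone H3 lysine 9 methyltransferase family. It had 21, 20 and 9 reads in mat nrpd1+/- and 26 and 10 in pat nrpd1+/- libraries, a log2 fold change of 0.09 ± 0.37 (edgeR adjusted p = 0.935). VIM5 belongs to a family of proteins that bind methylated DNA and help to keep CG methylation. It had 15, 12 and 13 reads in mat nrpd1+/- and 20 and 4 in pat nrpd1+/- libraries, a log2 fold change of 0.39 ± 0.42 (edgeR adjusted p = 0.674) that was 1.24 ± 0.73 without pat nrpd1+/- replicate 2 (edgeR adjusted p = 0.455). HDG3, a further HD-ZIP class IV factor, had 5, 9 and 6 reads in mat nrpd1+/- and 6 and 5 in pat nrpd1+/- libraries. ADM, whose DnaJ-domain product is known for its part in the seed abortion that follows crosses to tetraploid fathers, had 6, 3 and 2 reads in mat nrpd1+/- and 10 and 1 in pat nrpd1+/- libraries. HDG3 and ADM had too few reads for a test.

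In pat nrpd1+/- libraries SUVH7 and HDG3 had more 21-nt than 24-nt reads, whereas in mat nrpd1+/- libraries the order varied between replicates. SUVH7 had 16, 18 and 21 reads of 21 nt in mat nrpd1+/- and 40 and 31 in pat nrpd1+/- libraries. HDG3 had 6, 7 and 12 in mat nrpd1+/- and 21 and 14 in pat nrpd1+/- libraries. In both genes the raw reads did not overlap between the groups, but neither difference passed the test (log2 fold changes of -0.58 ± 0.33 for SUVH7 and -0.68 ± 0.46 for HDG3, edgeR adjusted p = 0.307 and 0.393). Reads of 21 nt made up 44.0% of the SUVH7 reads in mat nrpd1+/- and 55.9% in pat nrpd1+/- endosperm.

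**Figure D3:**
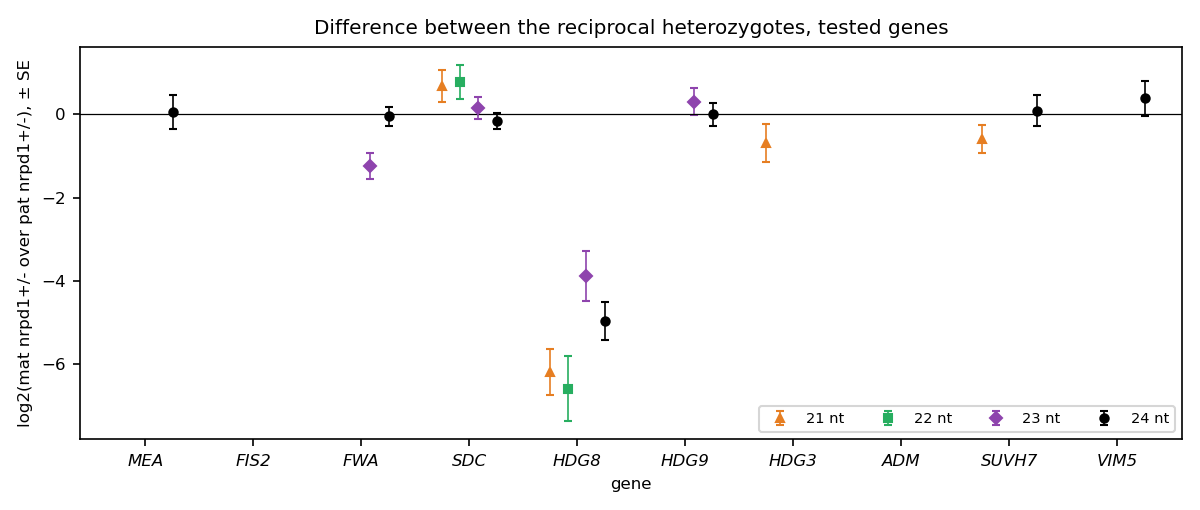
Log2 fold change of mat nrpd1+/- over pat nrpd1+/- for each gene and sRNA length tested, with bars of 1 SE either side (edgeR; 3 against 2 libraries). HDG8 lies between -6.59 and -3.88 in all 4 lengths, and the other estimates lie between -1.23 (FWA, 23 nt) and 0.78 (SDC, 22 nt).

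The second comparison set endosperm with no working NRPD1 against each heterozygote. Raw 24-nt reads of the maternally expressed genes were close to 0 in nrpd1-/- libraries, whereas SUVH7 kept reads. Before scaling, the 6 maternally expressed genes together had 14, 13 and 5 reads of 24 nt in nrpd1-/- libraries, against 344, 333 and 253 in mat nrpd1+/- and 822 and 294 in pat nrpd1+/- libraries. The 4 paternally expressed genes together had 25, 13 and 8 reads in nrpd1-/- libraries, against 47, 44 and 30 in mat nrpd1+/- and 62 and 20 in pat nrpd1+/- libraries. Paternally expressed genes thus held 50.0% to 64.1% of the reads of the 10 genes in nrpd1-/- libraries, 10.6% to 12.0% in mat nrpd1+/- libraries, and 6.37% to 7.01% when the father was mutant. These shares do not depend on the library scale, but they rest on SUVH7. Without it the other 3 paternally expressed genes held 27.8% to 37.5% of the reads in nrpd1-/- libraries, 6.72% to 7.66% in mat nrpd1+/- libraries, and 3.29% and 4.20% in the pat nrpd1+/- libraries. In each nrpd1-/- library SUVH7 had more 24-nt reads than SDC, and in each heterozygous library it had fewer.

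How large a fall is depends on the scale, because the genic 24-nt pool itself shrinks without Pol IV. The trimmed mean of M values (TMM) scaling used in the tests fits the libraries to each other over their shared genes, and it gave nrpd1-/- libraries effective sizes of 149487 to 173911 reads, against 1977538 to 2573832 in mat nrpd1+/-. On this scale the median gene had a log2 fold change of -1.05 for nrpd1-/- over mat nrpd1+/- and -1.67 for nrpd1-/- over pat nrpd1+/-. With 24-nt reads in miRNA entries as the scale instead, called the miRNA scale, these medians were -5.29 and -5.59. Such reads numbered 19645 to 31761 per library in nrpd1-/-, 16855 to 17785 in mat nrpd1+/- and 13118 and 38607 in pat nrpd1+/-. The 21-nt reads of these entries, 495907 to 496178 per library in mat nrpd1+/-, did not enter this scale. The share of higher calls among all called genes fell to 3.1% on the miRNA scale, against 39.3% by TMM, for nrpd1-/- over mat nrpd1+/-, and to 3.23%, against 37% by TMM, for nrpd1-/- over pat nrpd1+/-. Values below are by TMM, with the miRNA scale beside them where it turns a direction or a call.

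Against mat nrpd1+/-, 4 genes passed the filter on low counts, of which SDC was lower and SUVH7 higher. The same rule called 68.4% of the 4719 genes tested, 26.9% higher and 41.5% lower, so a call was the common outcome. SDC had 4, 6 and 1 reads of 24 nt in nrpd1-/- libraries, against the 155 to 208 in mat nrpd1+/- given above. Its log2 fold change was -1.83 ± 0.39 by TMM (edgeR adjusted p = 0.000648) and -6.20 on the miRNA scale. Without nrpd1-/- replicate 1 it was -2.45 and without nrpd1-/- replicate 2 it was -2.87. It was -0.55 (edgeR adjusted p = 0.248) when genes averaging under 20 reads were left out.

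SUVH7 had 19, 8 and 5 reads of 24 nt in nrpd1-/- libraries, against 21, 20 and 9 in mat nrpd1+/-. The raw reads overlapped, and the direction of the change came from the scale. The log2 fold change was 3.16 ± 0.50 by TMM (edgeR adjusted p = 4.12e-05) and -1.25 on the miRNA scale (edgeR adjusted p = 0.00392), a reversed sign. It was 1.04 in the DESeq2 test (adjusted p = 0.168) and 1.89 without nrpd1-/- replicate 1, the library with 19 reads. When any 1 mat nrpd1+/- library was left out, SUVH7 no longer passed the filter on low counts.

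FWA had 3, 3 and 2 reads of 24 nt in nrpd1-/- libraries, against 50 to 59 in mat nrpd1+/-, and HDG9 had 2, 1 and 2, against 32 to 63. Neither was called by TMM, with log2 fold changes of -0.58 ± 0.50 for FWA (edgeR adjusted p = 0.311) and -0.98 ± 0.66 for HDG9 (edgeR adjusted p = 0.195). On the miRNA scale both were called lower, at -4.92 for FWA (edgeR adjusted p = 1.07e-13) and -5.28 for HDG9 (edgeR adjusted p = 9.15e-13). The DESeq2 test called FWA (-2.69, adjusted p = 5.55e-05) and HDG9 (-3.09) lower too. Without nrpd1-/- replicate 3, HDG9 was called lower by TMM (-1.92, edgeR adjusted p = 0.0309).

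Against pat nrpd1+/-, 4 genes were tested and SDC and HDG8 were lower, while 86.2% of the 3318 genes tested were called, 31.9% higher and 54.2% lower. SDC had a log2 fold change of -2.14 ± 0.57 (edgeR adjusted p = 0.00339), which was -0.69 when genes averaging under 20 reads were left out (edgeR adjusted p = 0.284). HDG8 had 4, 2 and 0 reads of 24 nt in nrpd1-/- libraries, against 334 and 55 in pat nrpd1+/-. Its log2 fold change was -2.56 ± 0.78 (edgeR adjusted p = 0.00759). That call was lost without pat nrpd1+/- replicate 2 (-1.64, edgeR adjusted p = 0.134) and without nrpd1-/- replicate 2 (-2.53, edgeR adjusted p = 0.0762), and the value was -3.33 without pat nrpd1+/- replicate 3 and -3.63 without nrpd1-/- replicate 1. The 7, 4 and 3 reads of HDG8 in mat nrpd1+/- libraries overlapped those in nrpd1-/- libraries in raw number. By TMM the mean was higher in nrpd1-/-, at 11.7 ± 11.8 CPM against 1.97 ± 0.65 CPM in mat nrpd1+/- (SD, n = 3 each). The scaled ranges overlapped too, and HDG8 was not tested in that pair. FWA and HDG9 were not called by TMM, with log2 fold changes of -0.79 ± 0.55 and -1.15 ± 0.63 (edgeR adjusted p = 0.182 and 0.0989). On the miRNA scale both were called lower, at -4.68 for FWA (edgeR adjusted p = 1.61e-13) and -4.98 for HDG9 (edgeR adjusted p = 9.04e-14), as they were by DESeq2, at -2.45 and -2.76 (adjusted p = 0.00845 and 0.0117). SUVH7 did not pass the filter in this pair, although its reads were 26 and 10 in pat nrpd1+/- libraries.

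The genes with fewest reads changed in raw number as follows. MEA had 0, 1 and 0 reads of 24 nt in nrpd1-/- libraries and FIS2 had 1, 0 and 0. VIM5 had 0, 1 and 3, ADM had 0, 3 and 0, and HDG3 had 6, 1 and 0. For MEA, FIS2 and VIM5 every heterozygous library had more raw reads than every nrpd1-/- library, and for HDG3 and ADM the raw ranges overlapped. Scaled by TMM the ranges overlapped for all 5, and VIM5 had the higher mean in nrpd1-/-, at 8.61 ± 10.3 CPM against 5.81 ± 0.77 CPM in mat nrpd1+/- (SD, n = 3 each). None of the 5 genes was tested against nrpd1-/-.

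Shorter and 23-nt sRNAs gave the same order for SDC. The genes tested here entered through their heterozygote reads alone, so a lower call was largely set in advance. For 22 nt, SDC had 1, 3 and 2 reads in nrpd1-/- and 25, 21 and 11 in mat nrpd1+/- libraries, a log2 fold change of -2.70 ± 0.50 (edgeR adjusted p = 7.14e-05). It was the 1 gene tested in that pair, in which 85.5% of genes were called, 25.6% higher and 59.8% lower. HDG8, the 1 gene tested for 22-nt sRNAs against pat nrpd1+/- (46.2% of all genes called, 7.67% higher and 38.5% lower), had 0, 1 and 0 reads in nrpd1-/- and 107 and 31 in pat nrpd1+/- libraries, a log2 fold change of -6.74 ± 0.82 (edgeR adjusted p = 1.3e-06). For 23 nt, SDC had 0, 0 and 3 reads in nrpd1-/- libraries. Its log2 fold change was -4.96 ± 0.65 against mat nrpd1+/- (edgeR adjusted p = 3.7e-06), where 2 genes were tested and 97.2% of all genes were called (23.1% higher, 74.1% lower), and -4.34 ± 0.79 against pat nrpd1+/- (edgeR adjusted p = 0.000106), where 1 was tested and 84.4% were called (22.6% higher, 61.8% lower). All 3 of these nrpd1-/- reads of SDC lay in replicate 3, without which the group was at 0 and both calls held. The size also moved against pat nrpd1+/-, to -3.63 without nrpd1-/- replicate 1 and -3.59 without replicate 2, and against mat nrpd1+/- to -5.63 without mat nrpd1+/- replicate 3. For HDG8 at 22 nt it was -6.06 without pat nrpd1+/- replicate 2, and without nrpd1-/- replicate 2 the group was at 0.

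HDG9, FWA and FIS2 had no 23-nt read in any nrpd1-/- library. Setting the group at a floor of 3 reads, HDG9 was at least 12.8-fold lower in nrpd1-/- than in mat nrpd1+/- and at least 7.62-fold lower than in pat nrpd1+/- on the TMM scale. HDG9 also passed the test against mat nrpd1+/- (edgeR adjusted p = 4.11e-06). FWA was at least 8.09-fold lower in nrpd1-/- than in mat nrpd1+/- and at least 13.5-fold lower than in pat nrpd1+/-. FIS2 was at least 2.21-fold and 2.83-fold lower in the same order, and neither FWA nor FIS2 passed the filter for a test.

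In nrpd1-/- endosperm 21-nt values of its own were held for only 2 of the 10 genes, HDG8 and SUVH7. The rows of that table that hold nrpd1-/- reads, 2099 in number, all passed the authors' own test, and 31766 other rows repeat the pat nrpd1+/- values, so no test was made. SUVH7 had 32, 33 and 43 reads of 21 nt in nrpd1-/- libraries, against 16, 18 and 21 in mat nrpd1+/- and 40 and 31 in pat nrpd1+/- libraries. HDG8 had 4, 4 and 0 in nrpd1-/- libraries, close to the 3, 1 and 0 in mat nrpd1+/- and far below the 205 and 79 in pat nrpd1+/- libraries.

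**Figure D4:**
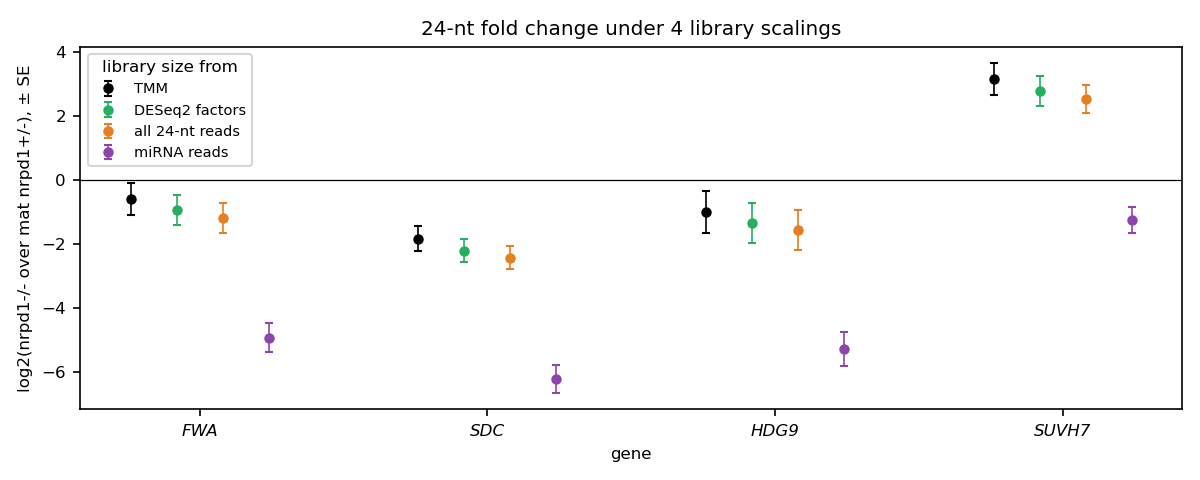
Log2 fold change of 24-nt reads in nrpd1-/- over mat nrpd1+/- endosperm for the 4 genes tested, with bars of 1 SE either side. Library sizes came from TMM, DESeq2 size factors, all 24-nt reads or 24-nt reads in miRNA entries. SUVH7 is at 3.16 by TMM and at -1.25 on the miRNA scale, while SDC is lower under both, at -1.83 and -6.20.

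TE insertions near these genes were counted separately from the genes. Within 2000 bp of the 10 genes the files list 18 insertions, at 6 genes: HDG8, HDG9, HDG3, ADM, SUVH7 and VIM5. MEA, FIS2, FWA and SDC had none. No insertion had more than 3 reads of 24 nt in an nrpd1-/- library, and 9 of the 18 had none in any of them.

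The richest insertion was AT5TE20625, a 267-bp ATREP15 helitron at chr5:5701406-5701672, 1467 bp downstream of HDG9. Its sequence is shown, from the RefSeq copy of TAIR10.1 on the plus strand, because it held the most 24-nt reads of the 18. It lies outside annotated genes, and its lower-case letters carry no marked feature.
AT5TE20625 whole: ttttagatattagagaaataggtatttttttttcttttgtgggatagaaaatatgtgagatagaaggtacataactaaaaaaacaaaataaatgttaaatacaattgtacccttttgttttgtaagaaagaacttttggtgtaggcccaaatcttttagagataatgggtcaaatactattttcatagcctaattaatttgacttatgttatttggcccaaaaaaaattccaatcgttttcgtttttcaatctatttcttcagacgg
It had 1 read in each nrpd1-/- library, against 111, 118 and 89 in mat nrpd1+/- and 140 and 82 in pat nrpd1+/- libraries. The heterozygotes overlapped in raw number, with a log2 fold change of mat over pat nrpd1+/- of 0.07 ± 0.21 (edgeR adjusted p = 0.909). For nrpd1-/- over mat nrpd1+/- it was -2.89 ± 0.65 (edgeR adjusted p = 1.36e-05).

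The other 3 insertions with a mean of at least 20 reads showed the same order. AT5TE20635, an ATREP3 helitron that overlaps the 3′ end of HDG9, had 0, 0 and 1 reads in nrpd1-/-, 55, 59 and 29 in mat nrpd1+/- and 65 and 42 in pat nrpd1+/- libraries. Reads in the overlap may be counted in HDG9 too, so AT5TE20635 and HDG9 are not independent loci. AT5TE20620, a 56-bp VANDAL22 fragment beside AT5TE20625, had 0 in each nrpd1-/- library, 48, 60 and 39 in mat nrpd1+/- and 46 and 29 in pat nrpd1+/- libraries. AT4TE31165, an ATLINE1_3A fragment 849 bp downstream of ADM, had 1 in each nrpd1-/- library, 69, 62 and 52 in mat nrpd1+/- and 57 and 45 in pat nrpd1+/- libraries. All 3 were lower in nrpd1-/- than in mat nrpd1+/-: AT5TE20635 by a log2 fold change of -3.27 ± 1.01 (edgeR adjusted p = 0.00154), AT4TE31165 by -2.10 ± 0.73 (adjusted p = 0.00469), and AT5TE20620 with no nrpd1-/- read, at least 3.48-fold against a floor of 3 reads over the group (adjusted p = 7.9e-05). With AT5TE20625 and AT5TE20660, an ATREP10D helitron upstream of HDG9, 5 of 6 insertions tested were lower, where 90.4% of all 13016 insertions tested were called, 2.57% higher and 87.9% lower. These 5 had at most 1 read per nrpd1-/- library and passed the filter on low counts through their mat nrpd1+/- reads. A lower call was thus largely set in advance and is no support beyond the raw reads. All but AT4TE31165 lie near HDG9, so they are not independent loci.

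The insertion that was not called, AT2TE60490, is an ATREP10D helitron 67 bp upstream of HDG3. It had 2, 2 and 3 reads in nrpd1-/- libraries, against 18, 20 and 18 in mat nrpd1+/- and 37 and 17 in pat nrpd1+/- libraries. Its log2 fold change for nrpd1-/- over mat nrpd1+/- was 0.80 ± 0.66 (edgeR adjusted p = 0.229) by TMM and -3.52 on the miRNA scale, with the sign reversed (adjusted p = 1.86e-13). Without nrpd1-/- replicate 3 the value of AT5TE20625 was -3.68, that of AT4TE31165 was -2.88, and AT5TE20635 had no nrpd1-/- read, all 3 still called. None of the 6 insertions passed the filter when any 1 mat nrpd1+/- library was left out, so those fits did not test them. The filter then kept 6829 to 6873 insertions, against 13016 with all libraries. Against pat nrpd1+/- no insertion near the 10 genes passed the filter, while 98.3% of the 6795 insertions tested were called (1.9% higher, 96.4% lower). In that pair the DESeq2 test called 7 lower and the miRNA scale 10.

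Between the heterozygotes 1 of 10 insertions tested was called, against 5.74% of all 17018 (3.06% higher, 2.69% lower). This was AT3TE03200, an ATREP11 helitron at chr3:754698-755152 that ends 7 bp from the 3′ end of HDG8, so it lies beside the 1 gene that differed. AT3TE03200 passed the filter on low counts through its pat nrpd1+/- reads alone. The 150 bases facing HDG8 (chr3:755003-755152, TAIR10.1, plus strand) are shown for that reason, with no feature marked.
AT3TE03200 end facing HDG8: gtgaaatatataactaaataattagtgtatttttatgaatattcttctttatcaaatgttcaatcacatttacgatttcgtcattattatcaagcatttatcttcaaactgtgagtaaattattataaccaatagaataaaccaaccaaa
It had 1, 0 and 0 reads in nrpd1-/-, 0, 2 and 3 in mat nrpd1+/- and 25 and 7 in pat nrpd1+/- libraries. The mat nrpd1+/- libraries lay below both pat nrpd1+/- libraries, and the log2 fold change was -2.93 ± 0.69 (edgeR adjusted p = 0.0265). The call was lost in the DESeq2 test (adjusted p = 0.172) and without mat nrpd1+/- replicate 1, mat nrpd1+/- replicate 2 or pat nrpd1+/- replicate 2, and the value was -3.68 without mat nrpd1+/- replicate 3. The TE and the gene lie 7 bp apart, so their reads are not independent loci.

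**Figure D5:**
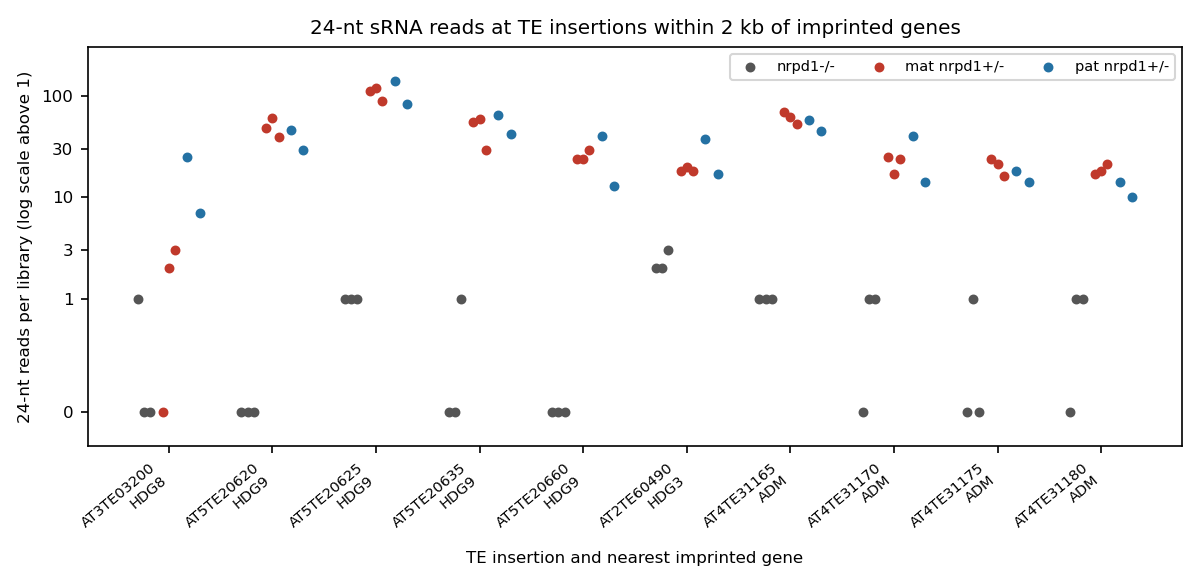
24-nt reads in the 9 TE insertions near the 10 genes that averaged 10 reads or more, and in AT3TE03200, 1 point per library, on a log scale with 0 shown at the foot, for nrpd1-/-, mat nrpd1+/- and pat nrpd1+/- endosperm. No nrpd1-/- point is above 3 reads, AT5TE20625 reaches 140, and AT3TE03200 has at most 3 reads in mat nrpd1+/- against 7 and 25 in pat nrpd1+/- libraries.

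Other imprinted genes of the study, from its mRNA lists and with the 10 genes left out, give the surroundings. The lists hold 275 maternally and 100 paternally expressed genes besides the 10, more than the paper assesses for misregulation. The paper credits its imprinted genes between Col and Ler to earlier work. Of 84 maternally expressed genes tested for 24-nt sRNAs between the heterozygotes, 2 were higher and 3 lower in mat nrpd1+/-, with a median log2 fold change of -0.12. Of 64 paternally expressed genes, 1 was higher and 6 were lower, with a median of 0.10. Over all genes tested 2.8% were higher and 5.34% lower, with a median of -0.05. On the miRNA scale the counts were 5 higher and 2 lower for the maternally expressed genes and 6 higher and 5 lower for the paternally expressed genes, with medians of 0.23 and 0.43 beside 0.27 for all genes. The genes with the largest changes past the threshold were YUC10, an auxin biosynthesis gene, with 78, 75 and 58 reads in mat nrpd1+/- and 12370 and 2530 in pat nrpd1+/- libraries, and AT1G20380, with 7, 5 and 7 in mat nrpd1+/- and 1307 and 300 in pat nrpd1+/- libraries. Their log2 fold changes were -6.34 ± 0.32 for YUC10 and -6.60 ± 0.35 for AT1G20380 (edgeR adjusted p = 5.54e-09 and 9.19e-09), with YUC10 at -5.65 without pat nrpd1+/- replicate 2. In the other direction, AT4G02910 had 2366, 2258 and 1978 reads in mat nrpd1+/- and 758 and 379 in pat nrpd1+/- libraries (log2 fold change 2.12 ± 0.20, edgeR adjusted p = 4.35e-06). NRPD1, itself on the paternally expressed list, had 288, 258 and 242 in mat nrpd1+/- and 170 and 73 in pat nrpd1+/- libraries (1.32 ± 0.20, edgeR adjusted p = 0.00042).

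For nrpd1-/- over mat nrpd1+/-, 8 of 47 maternally expressed genes were higher and 22 lower, with a median log2 fold change of -1.08, beside -1.05 for all genes. Of 43 paternally expressed genes 12 were higher and 2 lower, with a median of 0.30. Over all genes 26.9% were higher and 41.5% lower. The higher direction rests on the scale: with miRNA reads 0 of either list were higher and 44 maternally and 37 paternally expressed genes were lower, with medians of -5.44 and -4.06 beside -5.29 for all genes. On the list of the SUVH family (members left out), SDG21 (also called SUVH8), a maternally expressed gene, had 611, 477 and 336 reads of 24 nt in nrpd1-/- libraries, against 143, 187 and 173 in mat nrpd1+/-. Like SUVH7 it was higher by TMM, with a log2 fold change of 5.28 ± 0.37 (edgeR adjusted p = 1.63e-08), which was 0.88 on the miRNA scale and 4.50 by TMM without nrpd1-/- replicate 1. AT4G13495, a non-coding gene, had 164, 161 and 141 reads in nrpd1-/- and 127, 129 and 95 in mat nrpd1+/- libraries, with 4.22 ± 0.31 by TMM (edgeR adjusted p = 2.11e-08) and the sign reversed on the miRNA scale (-0.16). By TMM it was 3.63 without nrpd1-/- replicate 1 and 3.49 without nrpd1-/- replicate 3. MRU1 had 3, 6 and 3 reads in nrpd1-/- and 1542, 1313 and 963 in mat nrpd1+/- libraries (-4.49 ± 0.38, edgeR adjusted p = 8.74e-08), with -5.38 without nrpd1-/- replicate 2 and -5.11 without nrpd1-/- replicate 3, and AT2G40960 had 0 in each nrpd1-/- library and 96, 95 and 72 in mat nrpd1+/- libraries.

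For nrpd1-/- over pat nrpd1+/-, 4 of 32 maternally expressed genes were higher and 23 lower (median log2 fold change -1.87), and 5 of 25 paternally expressed genes were higher and 8 lower (median 0.04), beside 31.9% higher, 54.2% lower and a median of -1.67 for all genes. With miRNA reads 0 of either list were higher and 30 maternally and 21 paternally expressed genes were lower. AT5G35120 had 2, 3 and 0 reads in nrpd1-/- and 622 and 296 in pat nrpd1+/- libraries, a log2 fold change of -4.27 ± 0.65 (edgeR adjusted p = 7.4e-05) that was -4.98 without nrpd1-/- replicate 2. The lists for nrpd1-/- share its libraries and were read side by side only.

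The families of the 10 genes were read in the same way between the heterozygotes. Of 10 other HD-ZIP class IV genes tested, 0 were called, and 0 had an unadjusted p under 0.05 or a call in the DESeq2 test. Of 5 other VIM genes 0 were called by edgeR or DESeq2, and 1 had an unadjusted p under 0.05, while the miRNA scale called 2 higher. Of 4 other SUVH genes 1 was lower by edgeR and 0 were called by DESeq2. The difference at HDG8 was therefore the only call among the HD-ZIP class IV genes tested for 24-nt sRNAs.

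As a description of likeness, the other imprinted gene with the closest pattern over the 3 genotype means was sought among 138 candidates, by Euclidean distance of centred log2 CPM of 24-nt sRNAs. MEA and HDG9 lay closest to VIM3, at distances of 0.084 and 0.10. FWA lay closest to TT16 at 0.10, VIM5 to CYP71B25 at 0.093, SDC to AT5G62110 at 0.18 and SUVH7 to JLO at 0.29. HDG8 had the largest distance of the 7 genes, with its nearest pattern, that of AT4G02733, at 0.95. The distance grows with the size of the changes, and both genes had the same order. Centred values in mat nrpd1+/-, pat nrpd1+/- and nrpd1-/- were -1.60, 2.53 and -0.92 for HDG8 and -0.97, 1.82 and -0.86 for AT4G02733. FIS2, HDG3 and ADM did not pass the filter of this fit.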

How the data were processed

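The sRNA libraries were made with a kit whose adapters carry random bases. Per the study's methods, the authors trimmed reads with Cutadapt, removed PCR duplicates, aligned with Bowtie 1.2.2 to TAIR10 and to a Ler pseudo-genome lifted to it, split alignments by length and counted reads over Araport11 genes and TEs with bedtools. The strand used in counting is not given in the sources used here, and FIS2, FWA and SDC overlap another gene. The deposited values used are raw counts per library. The deposited tables also hold normalised counts (a signal scaled by DESeq2 size factors) and mean columns, from which the wild-type means were worked out, other columns such as positions and names, and the authors' own fold changes and p-values, which were not used. There were 331 per-library columns not used.

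Counts of each whole table were tested 2 groups at a time with edgeR 4.0.16 (R 4.3.3): filterByExpr, TMM on reads in genes and miRNA entries, quasi-likelihood F test and Benjamini-Hochberg adjustment over all features tested. TEs used the genic scale. Positive log2 fold changes mean higher in the first-named genotype. CPM (edgeR's counts per effective library size) are scaled within the pair compared, and CPM per kb come from a scale common to all 8 libraries. Alternatives were DESeq2 1.42.0, its size factors in edgeR, other filters, 1 fit of all genotypes, a replicate block and leaving out each library. Library size was also taken from all reads of the length, or from reads of that length in miRNA entries. Scripts were tested on simulated data. The members and lists were chosen with earlier results of these data known. Every one of the 10 genes is named. Other genes named are, per comparison and direction, at most the 2 called genes of the fixed lists with the largest change and a mean of at least 20 reads, and TE insertions named have that mean or are called or lie outside the rule and were singled out after their values were seen (AT2TE60490). Replicates of a group differed by more than sampling noise, with chi-square over degrees of freedom of 2.25 or more.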

Additional observations from a re-analysis of the deposited data

How the results depend on the processing

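The HDG8 difference between the heterozygotes in 24-nt sRNAs was called under every alternative run. The other counts of called genes moved as follows. For 24-nt sRNAs in nrpd1-/- over mat nrpd1+/- (2 called), the count was 4 with DESeq2, with miRNA or all reads as library size, with no filter on low counts and with 1 fit of all genotypes, 0 with a mean of at least 20 reads, and 1 to 3 when 1 library was left out. Over pat nrpd1+/- (2 called) it was 4 with DESeq2, the miRNA scale and no filter, 5 with 1 fit of all genotypes and 0 with a mean of at least 20 reads. For 23-nt sRNAs in mat over pat nrpd1+/- (2 called) it was 1 with DESeq2, all reads, no filter and a mean of at least 20 reads, and 0 to 1 when 1 library was left out. For nrpd1-/- over mat nrpd1+/- (2 called) it was 4 with DESeq2 and no filter and 1 with a mean of at least 20 reads. Over pat nrpd1+/- (1 called) it was 4 with DESeq2 and 1 fit of all genotypes, 5 with no filter and 1 to 3 when 1 library was left out. For 22-nt sRNAs the counts of 1 became 2 with all reads (mat over pat nrpd1+/-), 2 with no filter and 0 with a mean of at least 20 reads (nrpd1-/- over mat nrpd1+/-), and 2 with 1 fit of all genotypes (nrpd1-/- over pat nrpd1+/-).

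For TE insertions in mat over pat nrpd1+/- (1 called) the count was 0 with DESeq2, miRNA or all reads, a mean of at least 20 reads, 1 fit of all genotypes, or overlapping insertions alone, and 0 to 1 when 1 library was left out. In nrpd1-/- over mat nrpd1+/- (5 called) it was 8 with DESeq2, 9 on the miRNA scale, 11 with no filter, 2 with a mean of at least 20 reads, 1 for overlapping insertions and 0 to 6 when 1 library was left out. Over pat nrpd1+/- (0 called) it was 7 with DESeq2, 10 on the miRNA scale and with no filter, 6 with 1 fit of all genotypes and 0 to 3 when 1 library was left out. The cause of these moves was not tested.

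Signs reversed on the miRNA scale for SUVH7 (-1.25) and AT2TE60490 (-3.52, and -1.31 with no filter) in nrpd1-/- over mat nrpd1+/-, and for AT4G13495 over both heterozygotes (-0.16 over mat and -0.42 over pat nrpd1+/-). In mat over pat nrpd1+/-, higher calls made up 34.4% of all calls by TMM, 57.6% on the miRNA scale, 60.6% with all reads, 49.9% with DESeq2 and 47.3% with no filter.

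Of 7 pairs of same-numbered libraries, 1 had a correlation of deviations over 0.1 (-0.15 to 0.25). The 2 pat nrpd1+/- libraries mirror each other around their mean, so pairs with them cannot show whether the numbers mark pairing. Pairs of nrpd1-/- with mat nrpd1+/- lay from -0.02 to 0.06. The numbers are not treated as pairing. With the replicate number as a block, the 23-nt count in mat over pat nrpd1+/- was 1 and the TE count 0. At this depth FIS2, HDG3 and ADM had too few 24-nt reads to be tested in any pair.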
